A study of Mus musculus with 4 samples.

Results

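The genes described here are 35 genes of the unfolded protein response and of protein folding in the endoplasmic reticulum (ER), measured in pancreatic islets of mice with and without the retinoblastoma gene Rb1. They were taken from a named list and grouped by the branch of the response to which each is best known to belong. These are 7 genes of the PERK and ATF4 branch, 8 of the IRE1 and XBP1 branch, 13 of ATF6 and ER folding, and 7 of ER-associated degradation. All 35 had at least 1 probe, and all passed the filter on dim probes with signal well above background on all 4 arrays. They were among 26378 genes tested, a number that also counts probe targets with no matched gene symbol. Islets are the hormone-secreting clusters of the pancreas. Each array held Cy3-labelled RNA of the islets of 1 mouse. The control group was 2 mice of genotype Pdx1-Cre, which the sample titles call wild type, and the Rb-deficient group was 2 mice of genotype Pdx1-Cre:Rbf/f. Both groups thus carried the Pdx1-Cre transgene, whose promoter is active in the pancreatic lineage, so that the floxed Rb alleles set them apart, and age and sex are not given.

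The ER folds and modifies proteins that are to be secreted. When unfolded proteins build up, 3 sensors in its membrane respond. PERK slows translation and favours the factor ATF4, IRE1 splices the mRNA of XBP1, and ATF6 moves to the Golgi and is cut into an active factor. Their targets are chaperones, disulfide isomerases, the machinery that sends misfolded proteins to the proteasome and, through ATF4 and CHOP, genes of amino acid supply and cell death. Beta cells make large amounts of proinsulin and depend on this response, and loss of PERK is known to damage them.

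The factors act through short promoter elements, which are shown because they mark the members by a feature that expression did not decide. RefSeq promoter windows of build GRCm38.p6, from 250 bases before to 50 after the start of the gene, were held for 30 of the 35 members. The ER stress response element (ERSE), CCAAT and CCACG with any 9 bases between them, bound by NF-Y and ATF6 or XBP1, was searched on both strands. It was found in 9 of these 30 members and in 37 of 27025 genes with a promoter window, 0.137%. The matches follow, read along the strand that holds the motif, with its fixed letters in capitals.
Calr: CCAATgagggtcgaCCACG
Canx: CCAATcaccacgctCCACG
Creld2: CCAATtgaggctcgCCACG
Derl3: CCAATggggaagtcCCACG
Dnajc3: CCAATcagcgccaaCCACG
Hsp90b1: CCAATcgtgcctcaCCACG
Hsp90b1: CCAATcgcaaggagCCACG
Hspa5: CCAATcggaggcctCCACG
Pdia6: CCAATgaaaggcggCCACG
Syvn1: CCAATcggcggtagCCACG
The members with an ERSE were 6 of 10 in the ATF6 and folding group, 2 of 6 in the degradation group, 1 of 7 in the IRE1 and XBP1 group and 0 of 7 in the PERK and ATF4 group. Hsp90b1 held 2 matches. A related element, ERSE-II, ATTGG and CCACG with any 1 base between them, was found in Herpud1 and Dnajb11, against 12 of 27025 genes. The XBP1-binding letters TGACGTGG were in none of the 30 windows and in 0.714% of all. The core of the C/EBP-ATF element that ATF4 binds, TGATGNAA, was found in Asns, Chac1, Trib3 and Herpud1, and in 4.51% of all genes. A match describes letters and shows no binding, and where none was found only these letters are missing from this window.

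Whole promoter windows are given for the member that is the usual readout of the response (Hspa5), for the 4 degradation genes with the largest differences between groups, and for the gene with the widest spread between mice (Chac1). Matches to any of the 4 motifs are in capitals, and each window is printed 5′ to 3′ along its gene.
Hspa5, chr2:34771840-34772139, plus strand: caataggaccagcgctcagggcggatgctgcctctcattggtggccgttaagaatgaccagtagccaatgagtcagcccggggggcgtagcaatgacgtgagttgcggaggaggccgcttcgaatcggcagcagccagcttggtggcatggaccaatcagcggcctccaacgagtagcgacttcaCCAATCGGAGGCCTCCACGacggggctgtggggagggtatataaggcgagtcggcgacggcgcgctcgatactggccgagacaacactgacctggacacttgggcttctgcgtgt
Derl3, chr10:75893148-75893447, plus strand: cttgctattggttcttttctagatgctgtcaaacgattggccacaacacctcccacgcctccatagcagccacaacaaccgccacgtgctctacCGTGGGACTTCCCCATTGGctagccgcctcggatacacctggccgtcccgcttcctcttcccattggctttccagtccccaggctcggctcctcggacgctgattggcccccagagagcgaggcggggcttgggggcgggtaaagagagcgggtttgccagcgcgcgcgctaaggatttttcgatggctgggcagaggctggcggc
Herpud1, chr8:94386179-94386478, plus strand: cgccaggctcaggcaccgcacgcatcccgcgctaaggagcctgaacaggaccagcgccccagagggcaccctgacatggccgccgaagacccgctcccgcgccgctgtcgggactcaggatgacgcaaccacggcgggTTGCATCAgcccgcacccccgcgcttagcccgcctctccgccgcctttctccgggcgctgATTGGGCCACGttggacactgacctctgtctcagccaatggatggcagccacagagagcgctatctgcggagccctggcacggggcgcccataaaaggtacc
Sel1l, chr12:91849108-91849407, minus strand: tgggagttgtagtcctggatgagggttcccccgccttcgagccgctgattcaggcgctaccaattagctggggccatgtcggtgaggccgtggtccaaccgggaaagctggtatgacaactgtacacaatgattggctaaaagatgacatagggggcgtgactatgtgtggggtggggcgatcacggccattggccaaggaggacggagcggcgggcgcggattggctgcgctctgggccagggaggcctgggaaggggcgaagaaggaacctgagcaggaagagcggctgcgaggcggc
Edem1, chr6:108828391-108828690, plus strand: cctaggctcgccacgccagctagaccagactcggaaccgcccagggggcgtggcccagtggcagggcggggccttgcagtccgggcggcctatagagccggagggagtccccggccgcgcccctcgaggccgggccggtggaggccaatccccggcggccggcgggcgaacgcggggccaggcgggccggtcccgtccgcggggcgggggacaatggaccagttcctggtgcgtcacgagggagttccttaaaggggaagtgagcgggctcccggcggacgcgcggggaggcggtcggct
Chac1, chr2:119350992-119351291, plus strand: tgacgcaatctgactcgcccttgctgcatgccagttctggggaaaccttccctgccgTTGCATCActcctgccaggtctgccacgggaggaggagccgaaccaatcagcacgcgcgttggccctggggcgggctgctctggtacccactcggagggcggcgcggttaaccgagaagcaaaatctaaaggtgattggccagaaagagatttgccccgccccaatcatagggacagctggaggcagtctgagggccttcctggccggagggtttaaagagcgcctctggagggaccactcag
The windows of Sel1l and Edem1 held no match to the 4 motifs. That of Derl3 held an ERSE on the opposite strand, and that of Herpud1 held ERSE-II and the C/EBP-ATF core together.

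Signals below are log2 values of the processed intensity with the 75th percentile of each array (control spots aside) set to 0, so that 1 unit is 2-fold. A level is compared only with the same gene on other arrays, since probes differ in brightness. The 75th percentile lay between 361 and 488 intensity units on the 4 arrays, and Pearson's r between arrays across genes was 0.951 to 0.979. Control array 1 stood apart, with 77.6% of spots well above background against 60.9% to 61.8% on the others. It was also the only array with signal of Y-linked genes, 4 of 4 against 0 of 4 on the other arrays, and the only one without signal of Xist. Its mouse therefore differed in sex-linked transcripts from its group mate and from both Rb-deficient mice. Counts and medians that turn without it are given with and without it. Rb1 had signals of 0.28 and 0.86 in the control mice and -0.48 and -0.90 in the Rb-deficient mice, 2.40-fold lower, with an adjusted p of 0.735 in limma (Benjamini-Hochberg). Its other probe read -2.23 and -2.11 in control and -3.35 and -4.10 in Rb-deficient mice, a difference of -1.56. With each probe, both Rb-deficient mice lay below both controls. Where these probes sit relative to the floxed stretch of Rb1 is not known here, so their signals do not check the genotype. Insulin genes were bright on every array, with Ins2, the main cargo of the beta cell's ER, at 10.45 and 10.27 in control and 10.40 and 9.89 in Rb-deficient islets. Beyond the genotypes and the sex-linked transcripts, nothing says more of the animals than that they were separate mice.

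No member passed the threshold in limma, with adjusted p values (Benjamini-Hochberg over all genes) from 0.863 to 0.991, and 0 of 35 had an unadjusted p under 0.05. Among all genes tested limma called 0, or 0%, and unadjusted p values under 0.05 were reached by 1.48% upward and 4.18% downward. Both Rb-deficient mice lay below both controls for 3 members, Sel1l, Derl3 and Edem1, 8.57% of the 35, where 20.7% of all genes did so. Both lay above both controls for 1 member, Sec61b, against 15.3% of all genes. At least 1.5-fold lower in mean were 5 of 35 members, 14.3%, against 18.9% of all genes, and 0 were 1.5-fold higher, against 4.07%. These shares depend on the scale. With each array centred on its median signal (array median scaling) instead of its 75th percentile, 18 of 35 members lay above both controls, 51.4%, against 30.5% of all genes, and 2 lay below, 5.71% against 7.12%. Limma called 0 members on that scale too.

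In mean, 26 of 35 members were lower in Rb-deficient islets and 9 higher, against 58.1% of all genes lower and 41.9% higher, and the members' median log2 difference was -0.11 where that of all genes was -0.07. That direction rested on single mice and on the scale. Without Rb-deficient array 2 the median was 0.08 with 24 of 35 higher. Leaving out control array 1 gave 0.08 with 21 higher, leaving out Rb-deficient array 1 gave -0.43 with 34 lower, and leaving out control array 2 gave -0.38 with 32 lower. The median of all genes was -0.02, -0.03, -0.08 and -0.38 in these fits, so that the members kept to it when control array 2 was left out. Array median scaling adds a constant to each array and moved the median of all genes to 0.37 and that of the members to 0.32, with 29 of 35 higher. The array median was 49.2 intensity units on control array 1 and 31.7 to 35.5 on the others. On both scales the members' median was close to that of all genes.

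**Figure D1:**
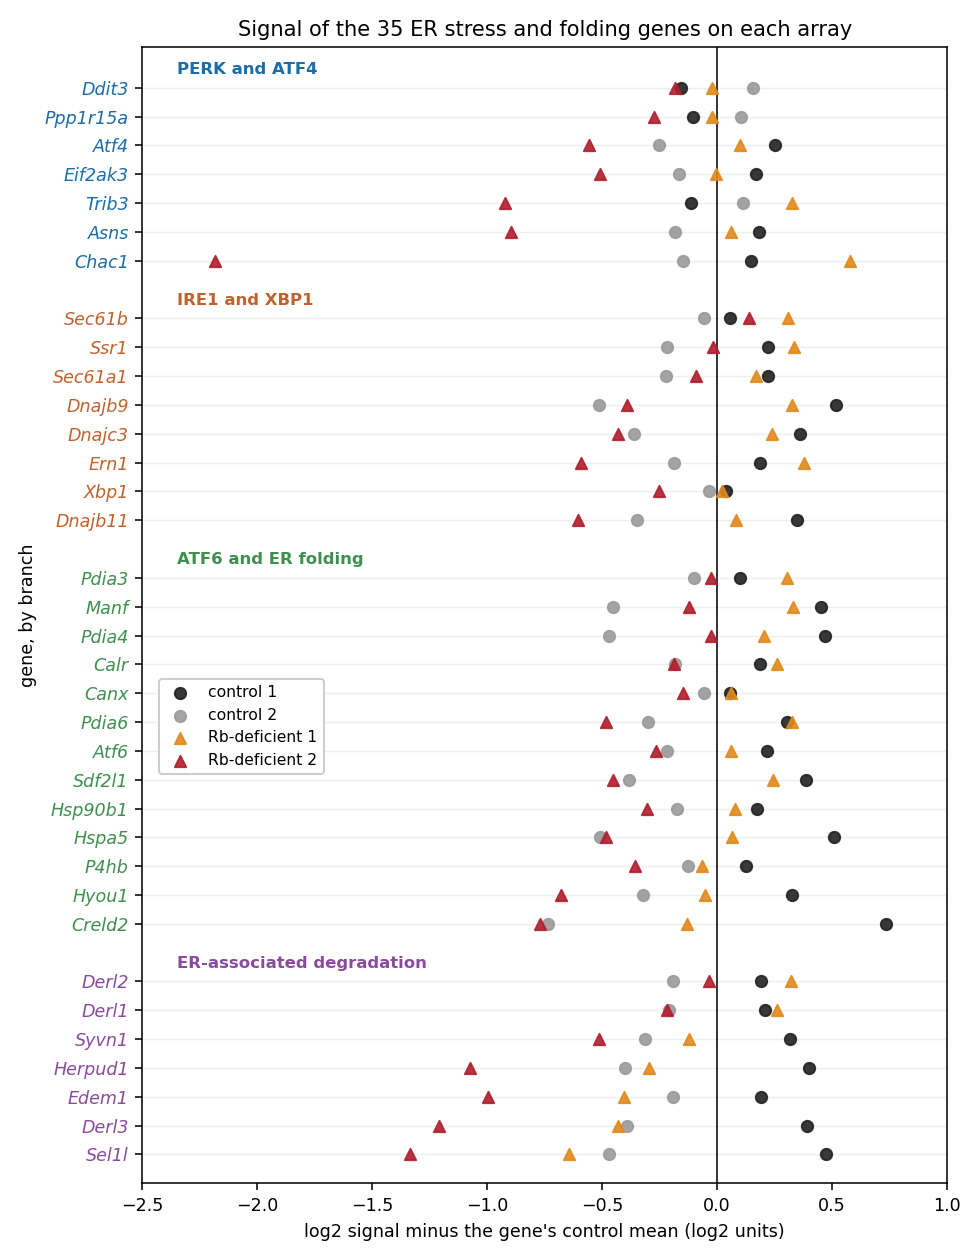
Each row is 1 gene and each point 1 array, plotted as its log2 signal minus the gene's mean over the control arrays (x axis, log2 units); circles are control mice and triangles Rb-deficient mice, and names are coloured by branch. Rb-deficient array 2 is lowest for 26 of 35 genes, control array 1 highest for 22, and on this scale the groups do not overlap only for Sel1l, Derl3, Edem1 and Sec61b.

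On the 75th percentile scale the larger spread lay between mice of the same genotype. The 2 control mice also differed in sex-linked transcripts and in spots well above background, 77.6% on array 1 and 61.2% on array 2. Mouse, sex-linked difference and array signal cannot be told apart in the gap between them. Control array 1 was above control array 2 for 32 of 35 members, by a median of 0.44, and Rb-deficient array 1 was above Rb-deficient array 2 for 35 of 35, by a median of 0.50. Among all genes the same held for 60.1% and 55.9%, by medians of 0.10 and 0.06. Among 108 other genes of the pathway, described below, it held for 84.3% and 88.9%, by medians of 0.27 and 0.24. The order was thus not particular to the members. The array numbers come from the sample titles, and no label pairs the arrays of the 2 groups. An order shared by both groups is therefore one of these numbers only. For 27 of 35 members the gap between the mice within each group exceeded the difference between the group means. This held for 38.3% of all genes and 60.2% of the other pathway genes. The median size of the group difference was 0.15 among the members, and the median size of the gap was 0.44 in control and 0.50 in Rb-deficient islets. The order within the Rb-deficient group held for 29 of 35 members with array median scaling and for 35 in the other settings that kept all arrays. The order within the control group held for 31 or 32 of 35 in those other settings, quantile normalization included, but for 11 of 35 with array median scaling. The gap within each group exceeded the group difference for 26 or 27 of 35 members in those other settings, but for 7 of 35 with array median scaling, where the same held for 32.7% of all genes. On that scale the median size of the group difference was 0.33, and that of the gaps 0.30 in control and 0.24 in Rb-deficient islets.

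Creld2, a disulfide isomerase-like protein secreted under ER stress, had the widest gap between control mice, 1.47 higher on control array 1 than on array 2 on the log2 scale. The gap was 1.03 for Dnajb9, an Hsp40 co-chaperone that restrains IRE1, 1.02 for Hspa5, the Hsp70 chaperone BiP that holds the sensors inactive, and 0.94 for both the degradation gene Sel1l and the isomerase gene Pdia4. In the Rb-deficient group array 1 was likewise above array 2 for these 5 genes, by 0.64, 0.72, 0.55, 0.69 and 0.23, though no label pairs the arrays. The 3 members for which control array 1 was not the higher one were Ddit3, Trib3 and Ppp1r15a, all of the PERK and ATF4 branch, with gaps of -0.31, -0.23 and -0.21. Of the 9 members with an ERSE in the promoter window shown above, 9 had array 1 above array 2 in both groups, with median gaps of 0.63 and 0.55. Of the other 26 members, 5 of which had no window, 23 did so, with medians of 0.40 and 0.49. The order in both groups held for 41.7% of all genes and 77.8% of the other pathway genes. With array median scaling the order in both groups held for 4 of the 9 and 6 of the 26, against 10.2% of all genes.

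**Figure D2:**
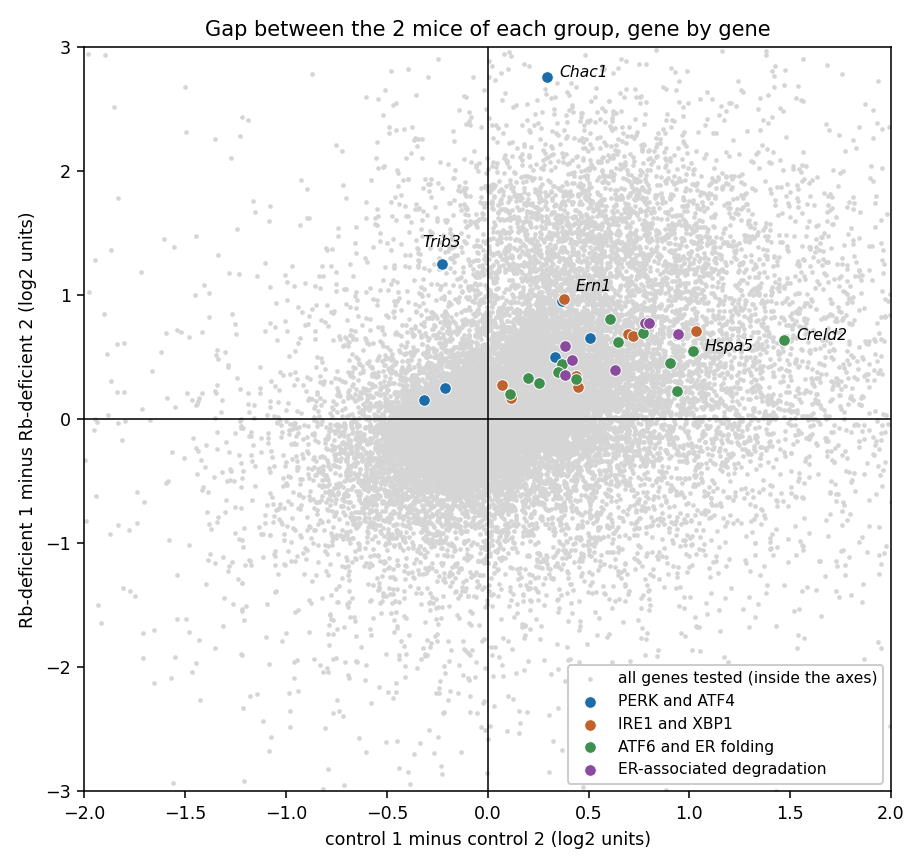
For each gene the x axis gives control array 1 minus control array 2 and the y axis Rb-deficient array 1 minus Rb-deficient array 2, in log2 units; coloured points are the 35 members by branch and grey points all genes tested that fall inside the axes. All members lie above 0 on the y axis and 32 of 35 right of 0 on the x axis (29 and 11 with array median scaling), with Chac1 highest at 2.76 and Creld2 farthest right at 1.47.

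In the PERK and ATF4 branch, whose genes tune translation and amino acid supply, all 7 members were lower in mean in Rb-deficient islets. Limma called 0 of them, and the median log2 difference was -0.26. With array median scaling, however, 6 of the 7 were higher and the median was 0.18, against 0.37 for all genes. Without Rb-deficient array 2 the median was 0.06 with 4 of 7 higher. For each of the 7, Rb-deficient array 2 was the lowest of the 4, and Rb-deficient array 1 lay at or above the control mean for 4. With array median scaling array 2 was the lowest for 2 of 7. Eif2ak3, which encodes PERK, had signals of 1.94 and 1.61 in control and 1.77 and 1.27 in Rb-deficient islets. The groups overlapped, and its difference was -0.26 with a standard error of 0.28. Atf4, the factor whose translation PERK favours, had 6.92 and 6.41 in control and 6.76 and 6.10 in Rb-deficient islets, a difference of -0.23 (95% interval -1.21 to 0.75). Its other probe gave -0.24.

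The ATF4 targets of this branch were uneven between the Rb-deficient mice. Chac1, a glutathione-degrading enzyme induced by ATF4 and CHOP, had 3.93 and 3.64 in control and 4.37 and 1.60 in Rb-deficient islets. It was thus the highest on 1 Rb-deficient array and the lowest on the other, and its mean difference of -0.80 had a standard error of 1.02. Trib3, a pseudokinase that feeds back on ATF4, showed the same split, with 1.76 and 1.99 in control and 2.20 and 0.95 in Rb-deficient islets. Without Rb-deficient array 2 the differences of Chac1 and Trib3 turned to 0.58 and 0.33. Asns, asparagine synthetase, had 6.10 and 5.74 in control and 5.98 and 5.02 in Rb-deficient islets, so that only array 2 fell outside the control range. Its probes differed by -0.42 and -0.47 between groups. Ddit3, which encodes the death-linked factor CHOP, had 0.69 and 1.0 in control and 0.82 and 0.66 in Rb-deficient islets, a difference of -0.10 (95% interval -0.70 to 0.50). Ppp1r15a, the GADD34 subunit that ends the translation block, had 2.77 and 2.98 against 2.85 and 2.60. Neither of these last genes showed the wide split of Chac1, with gaps between Rb-deficient mice of 0.16 and 0.25 against 2.76. In limma the adjusted p values (Benjamini-Hochberg) of the branch lay between 0.866 and 0.917.

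The IRE1 and XBP1 branch, which widens the ER and its import channel, showed the smallest median, -0.07, with 5 of 8 members lower and 0 called. With array median scaling 8 of 8 were higher, with a median of 0.37, equal to that of all genes. On that scale 6 lay above both controls, where 30.5% of all genes did so. Single arrays turned the direction too, with a median of 0.26 and 7 of 8 higher without control array 1 and of 0.27 and 8 of 8 higher without Rb-deficient array 2. Ern1, the gene of the sensor IRE1, had 1.26 and 0.88 in control and 1.45 and 0.47 in Rb-deficient islets, with the Rb-deficient mice on either side of the controls. Xbp1 was the steadiest of the branch's regulators, with 6.43 and 6.35 in control and 6.41 and 6.14 in Rb-deficient islets. Its difference was -0.12 with a 95% interval from -0.68 to 0.45, and its 3 probes gave -0.12, -0.08 and -0.14. Only in the last of these probes did both Rb-deficient arrays lie below both controls. The arrays measured total Xbp1 signal, and splicing by IRE1 was not analysed here.

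Sec61b encodes a subunit of the channel through which new proteins enter the ER. By each gene's brightest probe, it was the only member for which each Rb-deficient mouse exceeded each control mouse. It had 6.81 and 6.70 in control and 7.06 and 6.89 in Rb-deficient islets, 1.17-fold higher, with a difference of 0.22 and a standard error of 0.19. Its other probe gave 0.18 with groups that overlapped. The channel's pore subunit Sec61a1 had 5.51 and 5.06 against 5.45 and 5.19, a difference of 0.04, while its other probes gave -0.57 and -0.26, so that its probes disagree. Ssr1, of the translocon-associated complex, had 4.35 and 3.91 against 4.47 and 4.12, with 0.16 in this probe and -0.07 in the other. Dnajb9 had 5.03 and 4.0 in control and 4.84 and 4.12 in Rb-deficient islets, a difference of -0.03 with a standard error of 0.49. Dnajc3, the co-chaperone p58IPK that also restrains PERK, had 2.94 and 2.22 against 2.81 and 2.14. Dnajb11, a BiP co-chaperone, had 4.11 and 3.41 against 3.84 and 3.15. Adjusted p values (limma, Benjamini-Hochberg) were 0.863 to 0.991 in this branch.

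Among the 13 genes of ATF6 and ER folding, which raise folding capacity, the groups overlapped for all 13, 9 were lower in mean and 4 higher, and the median difference was -0.10. With array median scaling 12 of 13 were higher, 9 of them above both controls, and the median was 0.34. On that scale 30.5% of all genes lay above both controls, and the median of all genes was 0.37. Without control array 1 it was 0.22 with 11 of 13 higher, and without Rb-deficient array 2 it was 0.08 with 10 higher. On the 75th percentile scale the gap between mice was larger in both groups than the difference between groups for each of the 13. Atf6 itself had 2.10 and 1.66 in control and 1.94 and 1.62 in Rb-deficient islets, a difference of -0.10 (95% interval -0.84 to 0.64). Hspa5, the gene of BiP, had 7.52 and 6.51 in control and 7.08 and 6.53 in Rb-deficient islets. Both Rb-deficient mice lay within the control range, and the mean difference of -0.21 had a standard error of 0.45, with -0.36 and -0.12 in its other probes. Without control array 1 it turned to 0.30.

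Other chaperones of the group also differed more between mice than between groups. Creld2 had 7.13 and 5.66 in control and 6.26 and 5.62 in Rb-deficient islets, and its difference of -0.45 turned to 0.28 without control array 1. Hyou1, a large Hsp70-related chaperone, had 0.58 and -0.06 against 0.21 and -0.42, with its 3 probes between -0.37 and -0.51. Hsp90b1, the ER member of the Hsp90 family, had 6.96 and 6.61 against 6.87 and 6.48. Sdf2l1, part of a BiP co-chaperone complex, had 3.89 and 3.12 against 3.75 and 3.05. Manf, a secreted factor that protects beta cells, had 4.97 and 4.06 against 4.85 and 4.40. In each of these genes array 1 of a group was above array 2.

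The disulfide isomerases join cysteines, and the calnexin cycle holds new glycoproteins until they are folded. P4hb, an isomerase, had 5.49 and 5.23 in control and 5.29 and 5.0 in Rb-deficient islets, a difference of -0.21 with a standard error of 0.22. Pdia3, the isomerase that works with calnexin and calreticulin, had 4.0 and 3.80 against 4.21 and 3.88. Pdia4 and Pdia6 differed by 0.09 and -0.08. The lectin chaperones Calr and Canx differed by 0.03 and -0.04, with a 95% interval for Canx of -0.58 to 0.50, the narrowest of the group. The other probe of Canx gave 0.12, with both Rb-deficient arrays above both controls. A p that misses the threshold does not show that these genes were equal, and the intervals give the sizes that 2 against 2 mice allow. Adjusted p values in limma (Benjamini-Hochberg) ran from 0.866 to 0.982.

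ER-associated degradation, which draws misfolded proteins out of the ER to the proteasome, was the branch with the largest differences. Its median was -0.69, with 5 of 7 members lower, 4 of them at least 1.5-fold, and 0 called. In bulk islets, fewer cells of a type and less RNA per cell cannot be told apart. Sel1l, the scaffold of the Hrd1 ubiquitin ligase complex, had 5.92 and 4.98 in control and 4.80 and 4.11 in Rb-deficient islets. Both Rb-deficient mice were below both controls in this probe and in the other, which read 0.51 and 0.09 against -0.29 and -0.72. In mean it was 1.98-fold lower, -0.99 on the log2 scale (standard error 0.46) (limma adjusted p 0.863, Benjamini-Hochberg).

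Derl3, a derlin of the retrotranslocation channel induced by XBP1 and high in secretory cells, had 4.61 and 3.82 in control and 3.79 and 3.0 in Rb-deficient islets. The nearest values of the groups almost met, while the gap between mice was 0.78 in each group, and the difference of -0.82 had a standard error of 0.43. Edem1, a mannosidase-like protein that picks misfolded glycoproteins, had 1.79 and 1.41 in control and 1.19 and 0.60 in Rb-deficient islets. It was 1.63-fold lower and had the smallest unadjusted p of the members, 0.0870. Its other probe, with 1.75 and 1.15 against 1.23 and 0.85, gave -0.41 and groups that overlapped. Herpud1, which gathers the ligase complex, had 5.75 and 4.95 in control and 5.05 and 4.27 in Rb-deficient islets, and both of its probes gave -0.69. The Rb-deficient array 1 lay above control array 2, so the groups overlapped.

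The remaining degradation genes did not share that size. Syvn1, the Hrd1 ligase that Sel1l holds, had 5.71 and 5.08 in control and 5.28 and 4.88 in Rb-deficient islets, a difference of -0.32 with a standard error of 0.32. Derl1 and Derl2, the broadly expressed derlins, had differences of 0.02 and 0.14, against -0.82 for Derl3. Sel1l, Derl3, Edem1 and Herpud1 were lower in every setting run, array median scaling and each array left out included. The branch median was -0.25 with array median scaling, against 0.37 for all genes, and 4 of 7 members were then lower. When 1 control array was left out it was -0.29 (array 1) or -0.89 (array 2), and when 1 Rb-deficient array was left out it was -1.0 (array 1) or -0.30 (array 2).

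**Figure D3:**
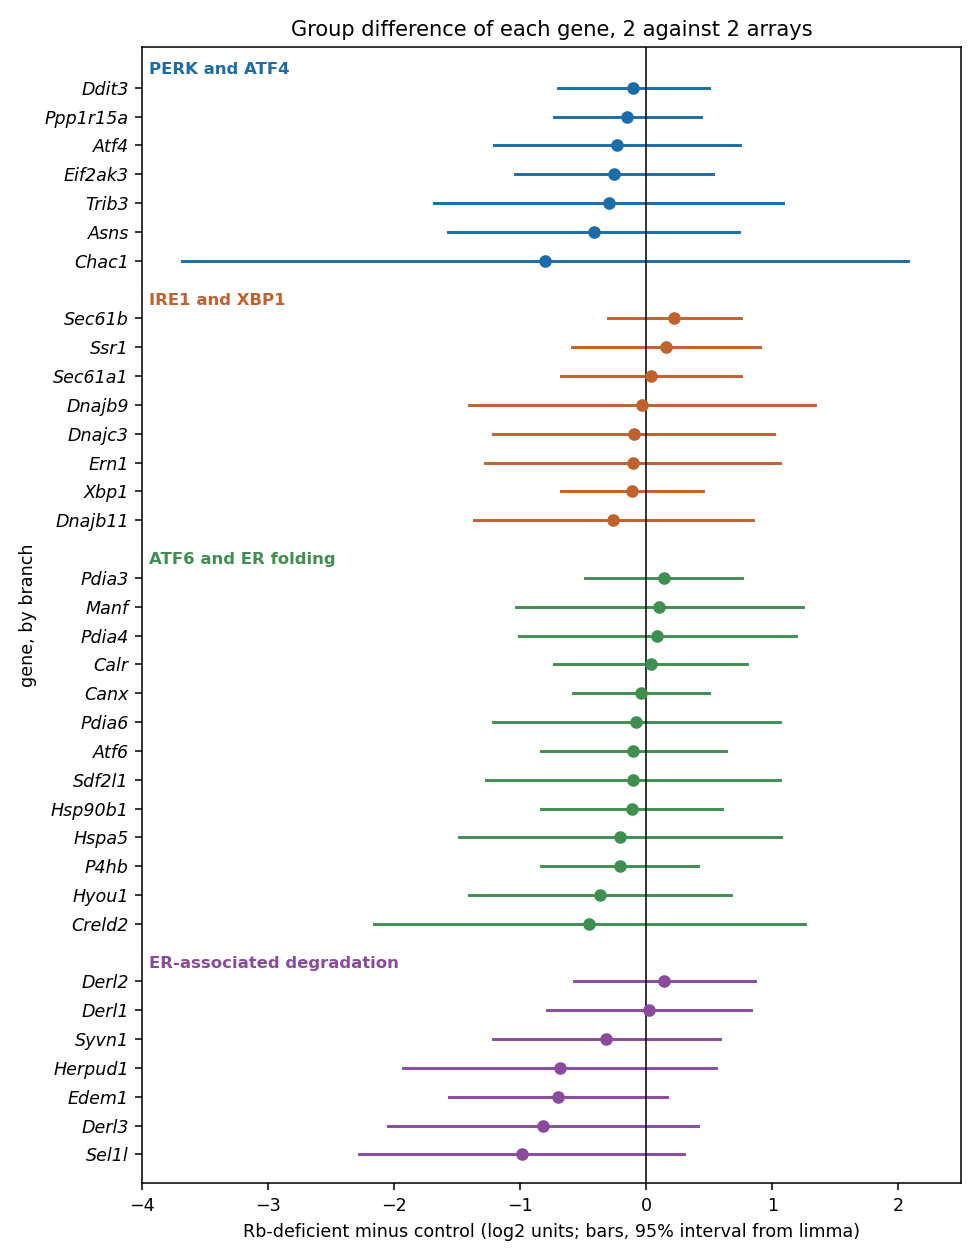
Each row gives a gene's log2 difference, Rb-deficient minus control (point), with its 95% interval from limma over 2 against 2 arrays (bar), coloured by branch. Every interval includes 0; the degradation genes Sel1l, Derl3, Edem1 and Herpud1 lie farthest left with Chac1, whose interval is the widest, -3.69 to 2.08.

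Markers of the cell types in the preparation moved in different directions. Acinar cells, which fill themselves with ER to make digestive enzymes, had signal in every mouse for all 13 markers measured. These were lower in mean for 13 of 13, with 0 called in limma, 1 with an unadjusted p under 0.05 and a median of -0.86. Below both controls lay 9 of 13, where 20.7% of all genes did so. With quantile normalization or array median scaling 11 of 13 were lower, with medians of -0.38 and -0.42. Their median stood 0.14 above and 0.14 below the control mean on control arrays 1 and 2, and 0.41 and 1.25 below it on the Rb-deficient arrays, where the degradation genes stood at 0.32, -0.32, -0.30 and -1.0. The log2 of their summed signal was 13.22 and 12.93 in control and 12.79 and 11.96 in Rb-deficient islets. Cpa1 and Prss2, a carboxypeptidase and a trypsinogen, were 1.49-fold and 1.82-fold lower in mean. The part of acinar RNA in the degradation result was not tested.

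Alpha cell markers were lower in mean for 5 of 7, with a median of -0.78, 0 called and 2 with an unadjusted p under 0.05, and 5 of 7 were lower with array median scaling too, with a median of -0.34 and 0 below both controls. Gcg, the glucagon gene, had 9.34 and 9.44 in control and 9.26 and 7.96 in Rb-deficient islets. Beta cell markers had a median of 0.11, with 6 of 10 higher and a summed log2 signal of 11.78 and 11.62 against 11.73 and 11.25. That direction rested on single arrays, the median being -0.07 when control array 1 and -0.08 when Rb-deficient array 1 was left out, while 9 of 10 were higher with quantile normalization and 10 of 10 with array median scaling. Macrophage markers were higher in mean for 10 of 10, with a median of 0.98, standing at 0.38 and 1.56 in the Rb-deficient mice, 0 called and 0 with an unadjusted p under 0.05. Ductal markers had a median of -0.62, which was -0.30 with normexp background correction, -0.28 with quantile normalization and -0.19 with array median scaling. Limma called 0 of the 7, and 2 had an unadjusted p under 0.05, both lower. Plasma and B cell markers had no settled direction in median, with 0.08, or 0.74 with quantile normalization, 0.34 without control array 1 and -0.27 without control array 2. Of the 6 measured, limma called 0, and 1 had an unadjusted p under 0.05, in the higher direction. The array on which the PERK and degradation genes were lowest was thus also the one with the lowest acinar and alpha cell and the highest macrophage signal. Their part in the results above was not tested.

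Other genes of the pathway, 109 in a list put together by function, were measured for 108. Limma called 0 of them, and 0 had an unadjusted p under 0.05. In mean 57 were higher and 51 lower, with a median of 0.01. Of the 108, 11 lay above both controls and 15 below, where 15.3% and 20.7% of all genes did so. With array median scaling 99 were higher, with a median of 0.45 where that of all genes was 0.37. Further targets of ATF4 leaned the way of the PERK branch, with 18 of 21 lower in mean and a median of -0.23, but with array median scaling 15 of 21 were higher. Their median stood at 0.01 and -0.61 in the Rb-deficient mice, so that the lean came from array 2. Nupr1, a stress-induced chromatin protein abundant in acinar cells, had 7.34 and 7.05 in control and 6.39 and 4.76 in Rb-deficient islets, 3.07-fold lower. Stc2, a secreted glycoprotein, had -0.87 and -2.39 against -2.93 and -4.41, 4.11-fold lower. Both had an adjusted p of 0.863 in limma (Benjamini-Hochberg).

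Further degradation genes did not repeat the size seen for Sel1l and its partners. Of 17 genes 11 were lower in mean, with a median of -0.07, the same as all genes. With array median scaling 17 were higher, with a median of 0.37, again that of all genes. Os9, a lectin that hands glycoproteins to the Sel1l complex, and Edem2, which trims them for it, differed by -0.29 and -0.44. Further folding and glycosylation genes had a median of 0.04, 17 of 26 being higher, or 13 of 26 with quantile normalization. Qsox1, a thiol oxidase, and Ppib, the ER cyclophilin, were both 1.56-fold lower, with both Rb-deficient arrays below both controls. Translocon and signal peptide genes had a median of 0.04, with Spcs3, a signal peptidase subunit, 1.21-fold higher and the signal recognition particle receptor gene Srpr 1.15-fold lower. Genes of transport between ER and Golgi had a median of 0.07, with Sec23a, of the COPII coat, 1.16-fold higher and the cargo receptor partner Mcfd2 1.28-fold lower. Further sensors and their processing enzymes had a median of 0.11. Among them Creb3, an ER-bound factor cut like ATF6, was 1.30-fold higher, with 2.35 and 2.23 in control and 2.68 and 2.66 in Rb-deficient islets. Ern2, the IRE1 form of secretory epithelia, had -2.36 and -4.12 against -4.53 and -4.24, so that control array 1 alone stood apart.

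**Figure D4:**
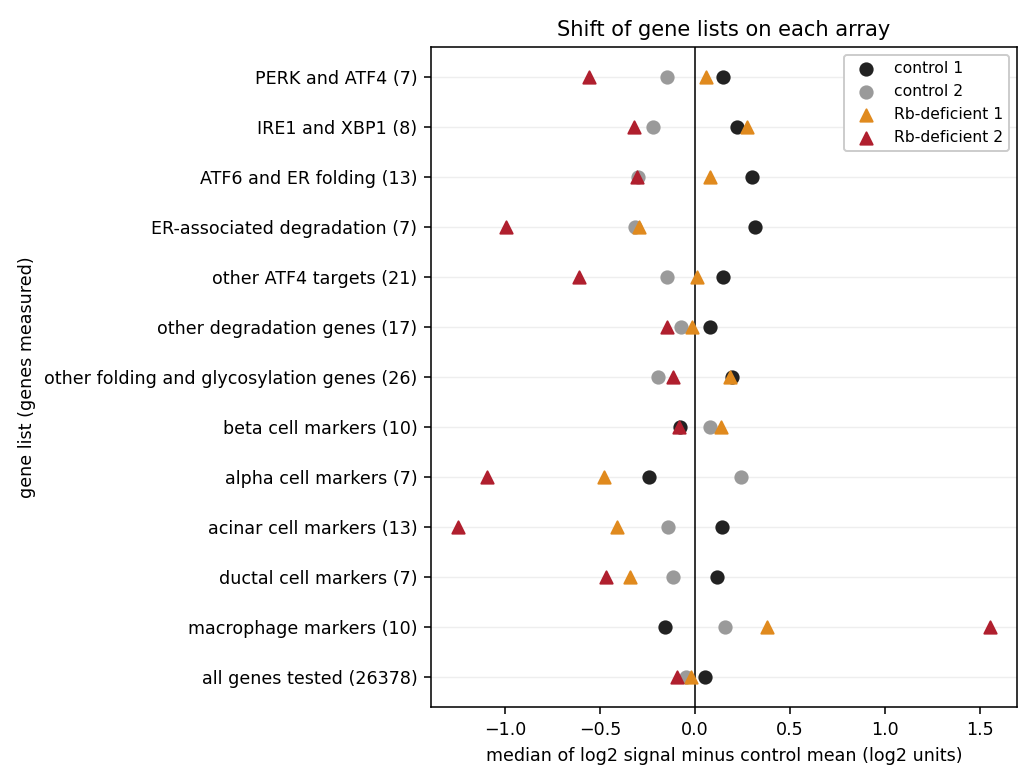
Each row is a gene list (genes measured in brackets) and each point the list's median, on 1 array, of log2 signal minus the gene's control mean (x axis, log2 units). Rb-deficient array 2 stands lowest in every row except other folding and glycosylation genes and macrophage markers, though narrowly for the ATF6 and beta cell lists. It lies farthest below the control mean for the PERK, degradation, other ATF4 target, alpha and acinar lists, at -0.56, -1.0, -0.61, -1.10 and -1.25. For macrophage markers it is the highest at 1.56, while all genes lie between -0.09 and 0.05.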

How the data were processed

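Islet RNA, labelled through a whole-transcriptome amplification kit per the labels, was measured on 4 single-colour Agilent arrays of 1 slide, 2 control and 2 Rb-deficient mice, grouped by sample title. The deposited scanner files hold intensity values, which the authors made with Agilent Feature Extraction 12.0.3.1, per the file headers; the processed intensity is background-subtracted with no scaling between arrays. The deposited series table holds the same values times 1 constant per array (48058 features) and served as an alternative. Probes were named by unversioned accession through a RefSeq table of GRCm38.p6, which matched 32994 of 56605 and gave 22911 symbols. Targets with no match kept the array's own name and were counted as genes, so they are part of each share of all genes. Control spots and outlier spots (64 to 93 per array) were left out, and spots of a probe averaged. Genes needed signal well above background on both arrays of a group, and the brightest probe stood for a gene, chosen once and kept across settings. Comparison of groups used limma 3.58.1 under R 4.3.3 (two-sided, 2 residual and 1.82 prior degrees of freedom, Benjamini-Hochberg over 26378 genes, threshold 0.05), which was tested on simulated data. The smallest p of an exact test of 2 against 2 is 0.333, so none was run. The number of arrays limits the precision.

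The members and lists were chosen with earlier results of these data known. Any of the 35 members may be named; of each other list the text names the 2 genes with the smallest p, of marker lists the first 2, 1 or none (1 gene is not reported here), and Rb1 and the insulin genes. Alternatives were normexp background correction (offset 50, run on the median spot signal), quantile normalization, array median scaling, scaling on probes above background on all arrays, the deposited table, other filters, the mean of a gene's probes, a replicate block and each array left out. The counts of arrays in order and of gaps within a group, by setting, were added after the values were seen. Slide could not be a block, with 1 slide.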

Additional observations from a re-analysis of the deposited data

How the results depend on the processing

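No member was called in any setting run, while 0 to 4 members had an unadjusted p under 0.05, all lower (4 with the replicate block, 2 with normexp). Limma called 480 genes with array median scaling and 4101 without control array 2 (0 to 4101 over the settings that left out an array), of which 0 were members. With array median scaling 18 members lay above both controls, and the medians of members, other pathway genes, PERK, IRE1 and ATF6 groups were 0.32, 0.45, 0.18, 0.37 and 0.34; that scaling adds 1 constant per array. With an array left out, 3 to 26 members lay below and 1 to 11 above the controls, where fewer arrays make this easier. With 1 array in a group, limma assumes that it varies like the others. Differences that changed sign with array median scaling were Eif2ak3 0.18, Atf4 0.21, Ddit3 0.33, Trib3 0.14, Asns 0.020, Ppp1r15a 0.29, Ern1 0.33, Xbp1 0.32, Dnajb9 0.40, Dnajc3 0.34, Dnajb11 0.18, Atf6 0.34, Hspa5 0.23, Hsp90b1 0.32, Hyou1 0.072, Sdf2l1 0.33, Pdia6 0.36, P4hb 0.23, Canx 0.39 and Syvn1 0.12. Others that did, all small in the main setting, were Pdia6 0.064, Calr -0.0024, Canx 0.018 and Derl1 -0.019 with quantile normalization, Dnajb9 0.0052 with normexp, Sec61a1 -0.27 and Canx 0.038 with a gene's probes averaged, and Derl1 -0.0018 with scaling on probes above background; the cause was not tested. Leaving out each array in turn changed the sign of 25 members, with ranges of Atf4 -0.56 to 0.099, Ddit3 -0.26 to 0.054, Trib3 -0.93 to 0.33, Chac1 -2.2 to 0.58, Asns -0.90 to 0.059, Ern1 -0.59 to 0.38, Xbp1 -0.25 to 0.022, Dnajb9 -0.55 to 0.48, Dnajc3 -0.46 to 0.26, Dnajb11 -0.61 to 0.085, Sec61a1 -0.18 to 0.26, Ssr1 -0.061 to 0.38, Atf6 -0.32 to 0.12, Hspa5 -0.72 to 0.30, Hsp90b1 -0.31 to 0.078, Sdf2l1 -0.49 to 0.28, Creld2 -1.2 to 0.28, Manf -0.35 to 0.56, Pdia3 -0.025 to 0.30, Pdia4 -0.38 to 0.56, Pdia6 -0.48 to 0.33, Calr -0.19 to 0.26, Canx -0.15 to 0.060, Derl1 -0.22 to 0.26 and Derl2 -0.049 to 0.34. No sign changed with the deposited table, other filters on dim probes or the replicate block. In the block fit limma called 0 members and the members' median stayed at -0.11; the deviations of same-numbered arrays correlated at r = 0.295 across all genes and 0.071 across the members, with 2 pairs and no label that pairs them.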
